A study of Vigna unguiculata with 30 samples.

Results

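Among cowpea leaf genes, a small set of 16 gene models was low in leaves from the top of the canopy and near-even in the middle and bottom leaves below. They were chosen from the 31948 gene models of the count table on their measured levels, at each of the developmental stages R1 and R3. Cowpea (Vigna unguiculata) is a grain legume, and the plants, of the line IT97K-499-35, were rooted in greenhouse soil with added light. Leaf punches from bottom, middle and top canopy positions were taken at R1 (week 5.5 from planting) and at R3 (week 6.5), with 5 libraries of polyA RNA for each of the 6 combinations, 30 in all. All groups share the line and the greenhouse, and no group was treated. The labels call the replicates biological but do not say that each came from its own plant, so p-values measure the variation between these samples.

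A plant canopy is layered by leaf age and by light. Leaves near the top are the youngest and best lit, and they import sugars and nitrogen until they mature into exporters. Leaves further down are older and shaded, and as they age they export nitrogen and other nutrients to younger leaves, flowers and pods. A gene that is low only at the top is one whose transcript level differs between the top layer sampled and the layers under it. In whole leaf punches, fewer cells of one type and less RNA per cell cannot be told apart.

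The choice used counts per 1e6 counts of the library's total (CPM). A gene on chromosomes 1 to 11 was kept if its mean over 30 libraries was at least 5 and under 1000 CPM. At each stage its mean in middle and in bottom leaves, with 0.5 CPM added, had to be at least 2.5 times that in top leaves, and the bottom mean had to be over 0.5 and under 1.75 times the middle mean. Since these values chose the genes, differences between positions are described here without a test. All 16 passed the filter on low counts that left 20284 genes for testing. The libraries held 10.5 to 17.4 M counts (median 12.7 M, M for mega) and had 22033 to 23951 gene models with at least 1 count. Levels below are CPM on TMM-scaled library sizes (TMM, the trimmed mean of M values), listed in the order of replicates 1 to 5 or given as mean ± SD over 5 libraries.

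The identifiers come without product names, 0 of them matched an entry of the RefSeq gene table used (assembly ASM411807v2), and no role is assigned to any of the 16. Coordinates are those of the count table, and no source used here names its genome build.

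Most genes low in top leaves were not even below. Of 14641 gene models on chromosomes in the range of mean CPM, 104 were at least 2.5-fold lower in top leaves on library totals. This held against both middle and bottom leaves at both stages, and 16 of the 104 were near-even below. In the other 88 the bottom mean was at least 1.75 times the middle mean, at both stages in 51, at R1 alone in 7 and at R3 alone in 30. In 0 of the 88 was the middle mean 2 or more times the bottom mean. The evenness of the 16 is itself one-sided, with ratios of bottom to middle of 0.846 to 1.69 at R1 (median 1.35) and of 0.892 to 1.68 at R3 (median 1.43). On the TMM scale the bottom mean was above the middle mean in 13 of 16 genes at R1 and in 15 of 16 at R3. On that scale, used for the levels below, some ratios of means at R3 were under the 2.5-fold limit. They were middle over top in Vigun03g020100 (2.42), Vigun01g203100 (2.39) and Vigun02g163400 (2.29), and bottom over top in Vigun02g014100 (2.47). Middle and bottom libraries overlapped in all 16 genes at both stages. Among all genes tested the libraries of these 2 positions lay fully apart in 8.64% at R1 and 13.2% at R3, a contrast that the choice used and from which nothing is read.

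**Figure D1:**
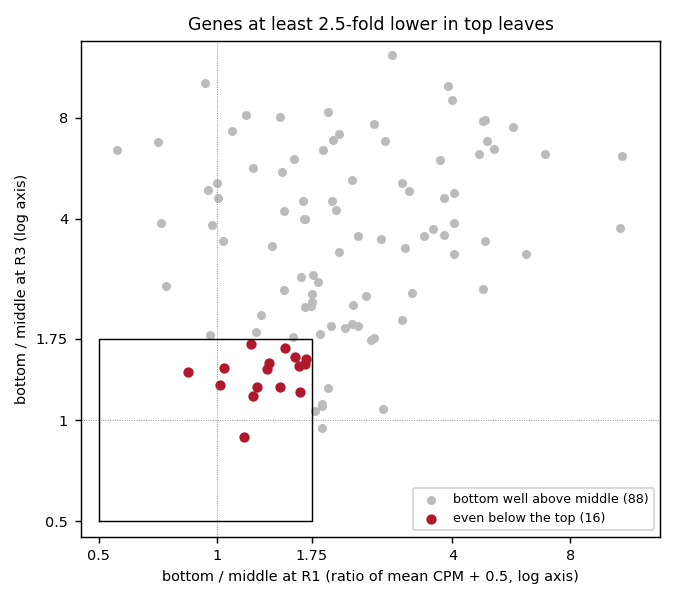
Ratio of the bottom to the middle mean (CPM on library totals + 0.5) at R1 (horizontal, log axis) and R3 (vertical, log axis). Points are the 104 genes at least 2.5-fold lower in top leaves. The box spans 0.5 to 1.75, the 16 red points inside it are the genes described here, most of them above 1 on both axes, and the 88 grey points have bottom well above middle at R1, R3 or both.

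The most abundant of the 16 was Vigun03g020100 (chromosome 3, 1465191 to 1470074, minus strand, 9 exon blocks). At R1 it stood at 417, 498, 529, 479 and 527 CPM in bottom leaves, 308, 421, 441, 421 and 493 CPM in middle leaves and 87.5, 93.4, 131, 199 and 280 CPM in top leaves. At R3 it stood at 533, 556, 450, 320 and 621 CPM in bottom leaves, 334, 417, 343, 423 and 457 CPM in middle leaves and 151, 26.4, 225, 168 and 243 CPM in top leaves. Every top library lay below every middle and bottom library of its stage. The bottom, middle and top means were 490 ± 45.9, 417 ± 67.3 and 158 ± 81.4 CPM at R1, against 496 ± 116, 395 ± 53.9 and 163 ± 85.3 CPM at R3. The group means of the 2 stages were close at each position.

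Vigun07g170300 (chromosome 7, 28474145 to 28476697, plus strand, 1 exon) had the next highest level. At R1 it was at 172, 223, 136, 148 and 161 CPM in bottom leaves, 110, 196, 145, 107 and 156 CPM in middle leaves and 26.8, 36.1, 43.9, 50.3 and 89.9 CPM in top leaves. At R3 the values were 170, 332, 229, 146 and 185 CPM in bottom leaves, 198, 171, 138, 151 and 168 CPM in middle leaves and 80.2, 7.27, 60.6, 42.6 and 61.9 CPM in top leaves. Here too no top library reached a middle or bottom library of its stage.

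Vigun08g033000 (chromosome 8, 3013473 to 3014467, minus strand, 1 exon) was at 108, 163, 181, 97.1 and 115 CPM in bottom leaves, 57.3, 112, 110, 79.0 and 98.0 CPM in middle leaves and 16.1, 13.6, 14.4, 47.7 and 75.3 CPM in those of the top at R1. The R3 values were 323, 301, 215, 203 and 177 CPM in bottom leaves, 82.2, 125, 177, 279 and 212 CPM in middle leaves and 45.2, 2.36, 84.2, 118 and 93.1 CPM in top leaves. Top and middle libraries overlapped at both stages, through top replicate 5 at R1 and replicates 3, 4 and 5 at R3, while all top libraries lay below all bottom ones. Vigun01g203100 (chromosome 1, 37915868 to 37918944, plus strand, 6 exon blocks) was at 124 ± 81.2, 116 ± 50.7 and 40.6 ± 23.1 CPM from the bottom to the top layer at R1, and at 116 ± 40.1, 109 ± 18.4 and 45.8 ± 24.4 CPM at R3. Its high bottom SD at R1 comes with replicate 3 at 264 CPM, the others being at 58.6 to 120.05 CPM. Vigun02g163400 (chromosome 2, 30821912 to 30825015, plus strand, 4 exon blocks) had bottom, middle and top means of 154 ± 48.6, 116 ± 49.7 and 29.2 ± 22.3 CPM at R1, and of 126 ± 48.1, 85.3 ± 11 and 37.3 ± 27.9 CPM at R3. Its top libraries lay below all others at R1 (highest 66.1 against 68.2 CPM in the lowest middle library) and overlapped the middle ones at R3 (75.0 against 68.9 CPM).

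**Figure D2:**
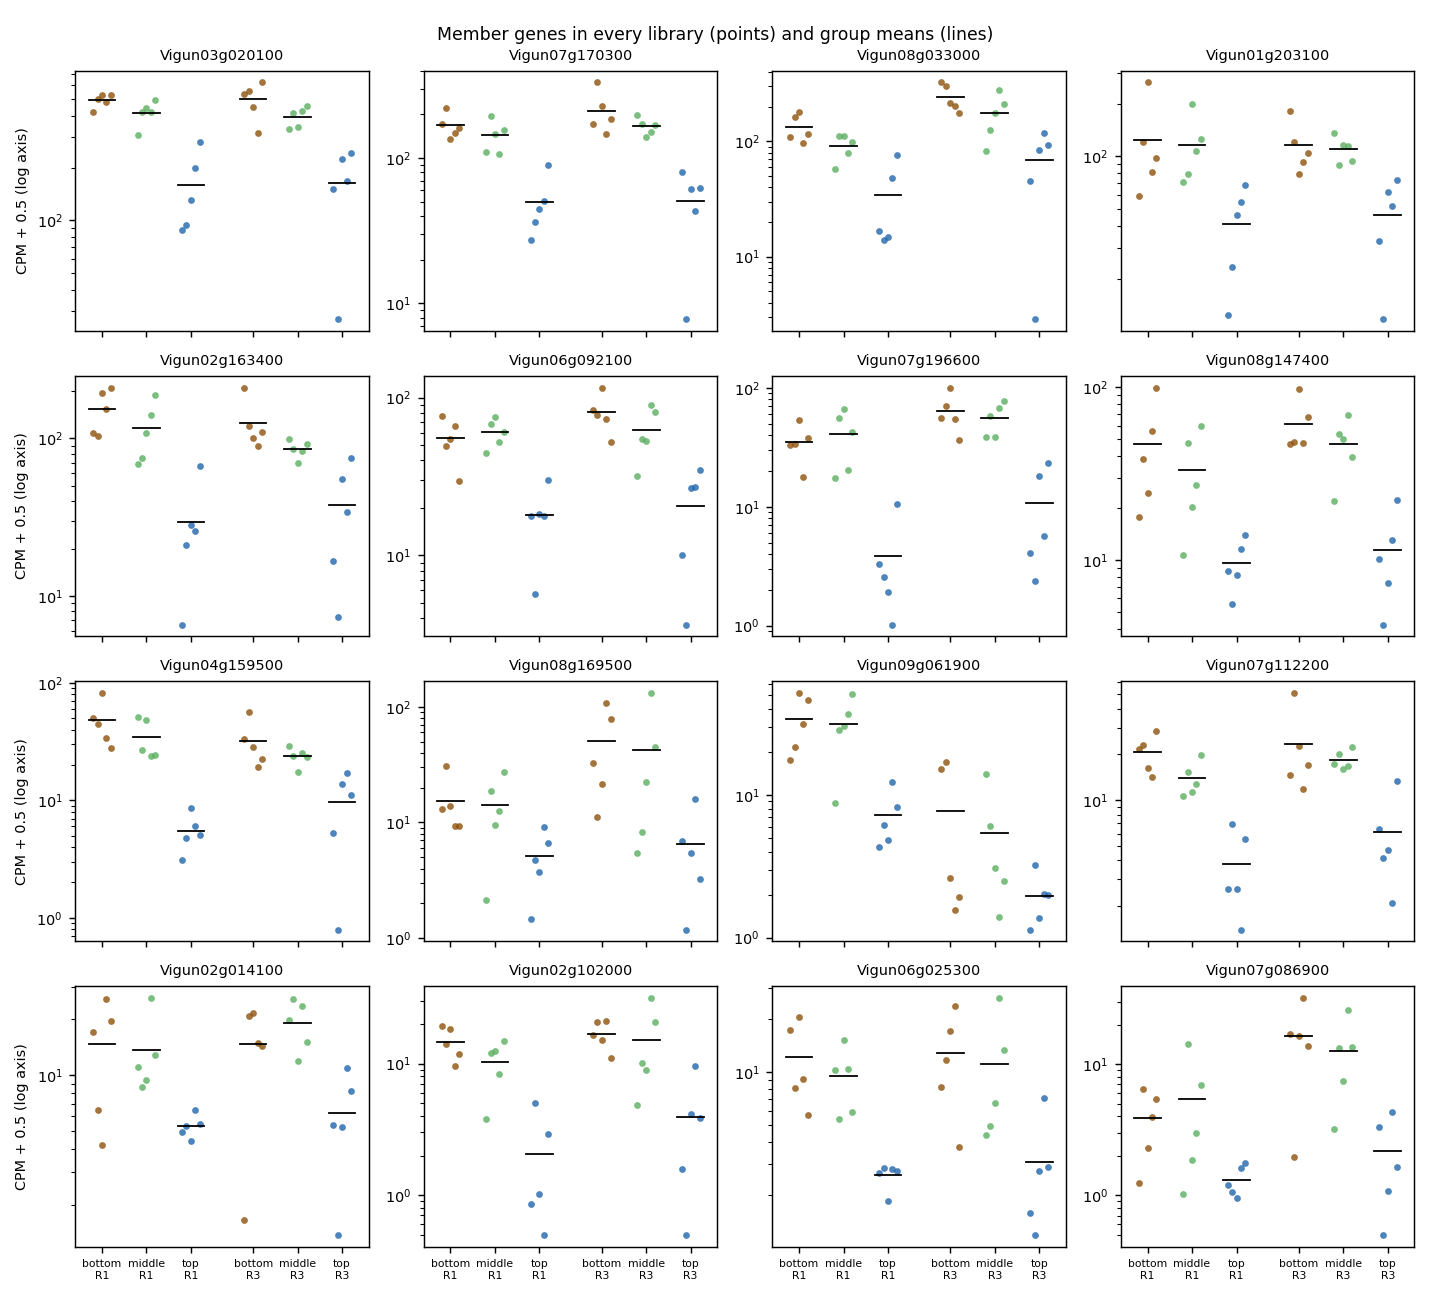
CPM + 0.5 (log axis) of the 16 gene models in every library (points, spread by replicate number) with group means (lines), for bottom, middle and top leaves at R1 and R3. Top means are the lowest of each stage in every panel, 1 top R3 library lies far below the other 4 in several panels, and the panel of Vigun09g061900 is lower at R3 than at R1 at all 3 positions.

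By the smallest of a gene's 4 ratios over top (middle and bottom, R1 and R3), the most depleted gene was Vigun07g196600 (5.91; chromosome 7, 31657710 to 31658557, plus strand, 2 exon blocks), which had the shortest exon length of the 16. At R1 it stood at 32.7, 33.5, 53.5, 17.3 and 37.1 CPM in bottom leaves, 17.1, 55.0, 66.2, 19.96 and 42.3 CPM in middle leaves and 2.79, 2.07, 1.42, 0.520 and 10.0 CPM in top leaves. At R3 it stood at 55.8, 70.2, 100.3, 54.6 and 36.0 CPM in bottom leaves, 37.8, 58.1, 38.4, 67.7 and 76.8 CPM in middle leaves and 3.58, 1.87, 17.7, 5.14 and 22.7 CPM in top leaves. Top libraries did not overlap the others at either stage, and the mean level was 11.9 times as high in middle and 10.3 times as high in bottom as in top leaves at R1. At R3 these ratios were 5.47 and 6.22, below those of Vigun07g086900 (7.29 and 9.46) and Vigun08g169500 (6.94 and 8.18).

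Vigun02g102000 (chromosome 2, 25659229 to 25664739, minus strand, 11 exon blocks) was next by the same measure (4.27), at a low level. It was at 14.2 ± 4.21, 9.80 ± 4.34 and 1.56 ± 1.9 CPM from the bottom to the top layer at R1 and at 16.4 ± 4.17, 14.7 ± 10.9 and 3.43 ± 3.48 CPM at R3. It had 0 counts in top R1 replicate 4, which allows up to 0.223 CPM (a floor of 3 counts in that library), and in top R3 replicate 2, which allows up to 0.295 CPM. These floors cover counting error only. Its top libraries reached 4.52 CPM at R1 and 9.02 CPM at R3, inside the range of the middle ones. Vigun04g159500 (chromosome 4, 38183457 to 38185096, plus strand, 4 exon blocks) was at 47.3 ± 21.2, 34.3 ± 13.6 and 5.00 ± 2.02 CPM at R1 and at 31.5 ± 14.9, 23.3 ± 4.21 and 9.11 ± 6.57 CPM at R3. It was the fourth gene whose top libraries lay below all middle and bottom libraries at both stages, with a highest top library of 8.10 CPM at R1 and 16.6 CPM at R3. The ratio of middle to top went from 6.86 at R1 to 2.55 at R3. The estimated stage effect was higher in top than in bottom leaves by 1.44 (log2, SE 0.69), which reached an unadjusted p of 0.047 and an edgeR adjusted p of 0.32, and was not called.

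Over the 16 genes, top libraries lay below all middle and bottom libraries in 7 at R1, in 5 at R3 and in 4 at both stages, and in 8 at neither. Among all 20284 genes tested this was so in 4.49% at R1, 1.49% at R3 and 0.424% at both, a contrast that the choice used and from which nothing is read. The ratio of the bottom to the top mean, as the choice computed it, ran from 2.96 to 10.3 at R1 (median 4.75) and from 2.94 to 9.23 at R3 (median 4.88). That of the middle to the top mean ran from 2.52 to 10.1 (median 3.42) and from 2.5003 to 7.32 (median 3.35). Genes lay close to the limit of 2.5 on both sides. Just inside lay Vigun02g163400, with a smallest ratio of 2.5003, and Vigun02g014100, with 2.52. Just outside lay Vigun03g001500, with 2.49, and Vigun09g093700, with 2.48. For Vigun02g163400 and both genes outside the limiting ratio was middle over top at R3, where the CPM on library totals were 81.7 ± 6.94 and 32.4 ± 23.1 for Vigun02g163400 and 663 ± 101 and 267 ± 152 for Vigun09g093700. For both of these genes the SD within top leaves was far larger than the distance of the mean from the limit.

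The remaining genes were of middle to low level. Vigun06g092100 (chromosome 6, 22416430 to 22423919, plus strand, 6 exon blocks) was at 54.6 ± 17.8, 59.8 ± 12.1 and 17.4 ± 8.62 CPM from the bottom to the top layer at R1 and at 80.02 ± 23.0, 61.5 ± 23.3 and 19.9 ± 13.0 CPM at R3. Vigun08g147400 (chromosome 8, 32008549 to 32009592, plus strand, 1 exon) averaged 46.8 ± 32.8, 32.6 ± 20.1 and 9.10 ± 3.26 CPM at R1 and 61.3 ± 22.3, 46.5 ± 17.6 and 10.9 ± 6.89 CPM at R3. Top libraries of Vigun08g147400 overlapped middle ones at both stages, while those of Vigun06g092100 overlapped bottom ones at R1 and middle ones at R3. Vigun07g112200 (chromosome 7, 20837478 to 20838810, plus strand, 1 exon) averaged 20.2 ± 5.64, 13.5 ± 3.79 and 3.30 ± 2.30 CPM at R1, without overlap of top and other libraries, and 23.0 ± 15.99, 18.0 ± 2.65 and 5.63 ± 4.31 CPM at R3, where a top library at 12.8 CPM overlapped a bottom one at 11.4 CPM. Vigun06g025300 (chromosome 6, 11730361 to 11764218, plus strand, 14 exon blocks over 33858 bp, the longest span of the 16) was at 11.6 ± 6.33, 8.92 ± 4.01 and 2.08 ± 0.416 CPM at R1, again without overlap, and at 12.4 ± 7.71, 10.6 ± 9.23 and 2.59 ± 2.34 CPM at R3. Vigun02g014100 (chromosome 2, 5225175 to 5227031, minus strand, 4 exon blocks) was at 14.2 ± 9.10, 13.1 ± 7.17 and 4.82 ± 0.782 CPM at R1 and at 14.2 ± 8.01, 18.7 ± 5.65 and 5.74 ± 3.58 CPM at R3. It was the gene whose middle mean exceeded the bottom mean at R3, where 1 bottom library was at 1.15 CPM and the other 4 at 13.8 to 21.1 CPM.

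Levels compared between genes need a length, since longer transcripts give more counts. Per kb of exon, the mean over all 30 libraries ran from 3.25 to 178 CPM per kb (median 33.9). Vigun03g020100 was highest at 178, followed by Vigun08g033000 at 125 and by the short Vigun07g196600 at 63.0 CPM per kb. Lowest were Vigun07g086900 at 3.25, Vigun02g102000 at 3.59 and Vigun06g025300 at 4.97 CPM per kb. The summed exon length had a median of 1474 bp in the 16 genes and 2034 bp in all 14641 gene models in the range of mean CPM. A single exon block was found in 4 of 16 genes (25%), in 9.03% of those 14641 and in 29.5% of the 88 genes low at the top with bottom well above middle. The 16 genes lay on 8 chromosomes, with 4 on chromosome 7, 3 each on chromosomes 2 and 8, 2 on chromosome 6 and 1 each on chromosomes 1, 3, 4 and 9. None was on chromosomes 5, 10 or 11, which hold 10.1%, 5.97% and 7.04% of the gene models in the range. They were scattered: the closest pair on a chromosome, Vigun08g147400 and Vigun08g169500, was 224 gene models apart, so no members were neighbours. On the plus strand were 12 of 16 (75%, against 49.6% in the range), and 0 overlapped an exon of another gene model. These are descriptions of a short list and were not tested.

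The libraries of a position differed among themselves in the level of these genes. The mean level of the 16 genes per library, as centred log2 CPM, was 0.78 ± 0.14 in bottom leaves, 0.52 ± 0.47 in middle and -1.54 ± 0.54 in top leaves at R1, and 0.96 ± 0.16, 0.69 ± 0.37 and -1.39 ± 1.21 at R3. The last SD rests on replicate 2, and without it the other 4 top R3 libraries had -0.88 ± 0.42. Middle R1 (SD 0.47) was nearly as spread as top R1 (SD 0.54), and the median CV of single genes was 50.5% in top R1, 43.9% in middle R1 and 40.9% in bottom R1. At R3 the median CV differed more, at 69.1% in top, 34.5% in middle and 38.0% in bottom leaves. Bottom libraries lay between 0.59 and 1.12 over both stages, whereas top libraries ran from -3.45 to -0.55. The lowest was top R3 replicate 2, in which 14 of the 16 genes had their lowest value of the group. A low value there lowers the top R3 mean that the choice used, and the share of all genes lowest in it was not counted. Nothing is therefore read from this count. The highest top libraries were R3 replicates 5 (-0.55) and 4 (-0.58) and R1 replicate 5 (-0.68). Middle R1 replicate 1, at -0.28, was the lowest library outside the top. Top R3 replicate 2 also stood apart over all genes: its deviations from its group's mean over 20284 genes had a root mean square of 1.01 on the log2 scale, the largest of the 30 libraries, the next being 0.73. Its depth (11.4 M counts), its 23000 detected gene models and its TMM factor (0.894) were inside the ranges of the other libraries. The part of this library's overall deviation in its low values here was not tested. Without it the choice kept 10 genes, all of them among the 16.

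**Figure D3:**
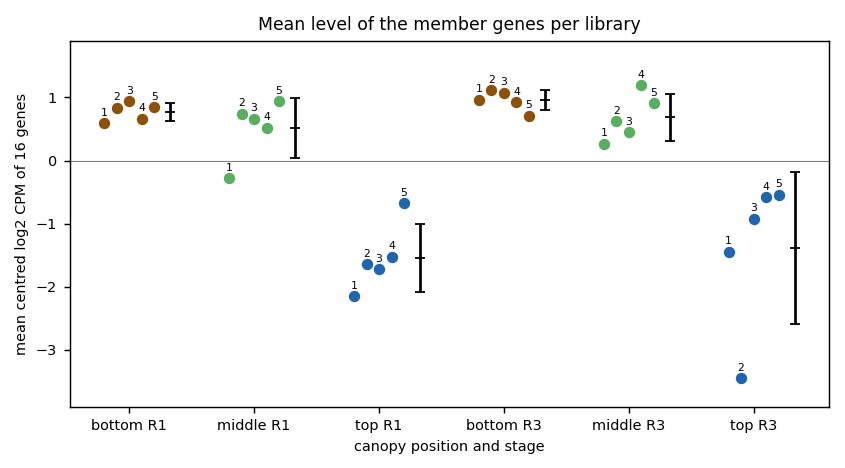
Mean centred log2 CPM of the 16 genes (vertical axis) in each library by canopy position and stage, numbered by replicate, with the group mean and SD beside the points. Bottom libraries lie between 0.59 and 1.12, top libraries between -3.45 and -0.55, and top R3 replicate 2 is the lowest.

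The same choice was repeated 5 times, each time without the 6 libraries of 1 replicate number, and the genes so chosen were read in the libraries left out. Between 13 and 24 genes were chosen, of which 6 to 12 were among the 16. In the left-out libraries the median ratio of bottom to top was 1.97 to 6.61 at R1 and 1.65 to 17.5 at R3, and that of middle to top was 2.10 to 4.87 and 1.86 to 8.60. The highest R3 values were those of replicate 2 and the lowest of all 4 kinds were those of replicate 5. The 5 repeats gave 83 choices in all, in which a gene counts once for each repeat that chose it. Among these 83 the top library was the lower one in 76 (bottom) and 78 (middle) at R1 and in 75 and 71 at R3. The full 2.5-fold ratio was met in the left-out pair in fewer, 59 and 47 at R1 and 53 and 38 at R3. Over all genes tested the median log2 ratio in these pairs stayed between -0.03 and 0.04. The shares of all genes with top lower, or with the 2.5-fold ratio met, were not counted, so nothing is read from these counts.

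Within groups, the genes varied together to different degrees. Deviations of log2 CPM from the group mean were correlated between each of the 120 pairs of the 16 genes over 30 libraries, which share their depth and scaling. The median r was 0.37 (-0.35 to 0.91) and 35% of pairs exceeded 0.5, where all pairs of genes tested had a median of -0.003 and 6.37% above 0.5. Much of this came with 1 library: without top R3 replicate 2 the median was 0.20 and 11.7% of pairs exceeded 0.5 (all genes 4.83%). Over the 20 middle and bottom libraries the median was 0.17, and over the 10 top libraries it was 0.62 (0.35 without that replicate). The closest pair was Vigun03g020100 with Vigun08g033000 (r = 0.91, and 0.73 without top R3 replicate 2). Vigun01g203100, Vigun02g163400 and Vigun03g020100 kept pairwise values of 0.68 to 0.76 without it. Vigun07g086900 was close to Vigun08g169500 (r = 0.74, and 0.69 without it) and to Vigun08g147400 (0.72, and 0.66 without it), while the last 2 had r = 0.44 with each other (0.35 without it). Vigun09g061900 had a median r of -0.03 to the other 15 over all 30 libraries and 0.09 without top R3 replicate 2. In the top libraries this median went from -0.22 to 0.58 when that replicate was left out, with r up to 0.80 (Vigun08g033000), and over middle and bottom libraries its highest r was 0.66 (Vigun02g163400). A low value in a single top library lowers the top mean that the choice used. The 16 can therefore share such values through the choice, and the comparison with all genes is not independent of it. These correlations describe the libraries and carry no test.

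**Figure D4:**
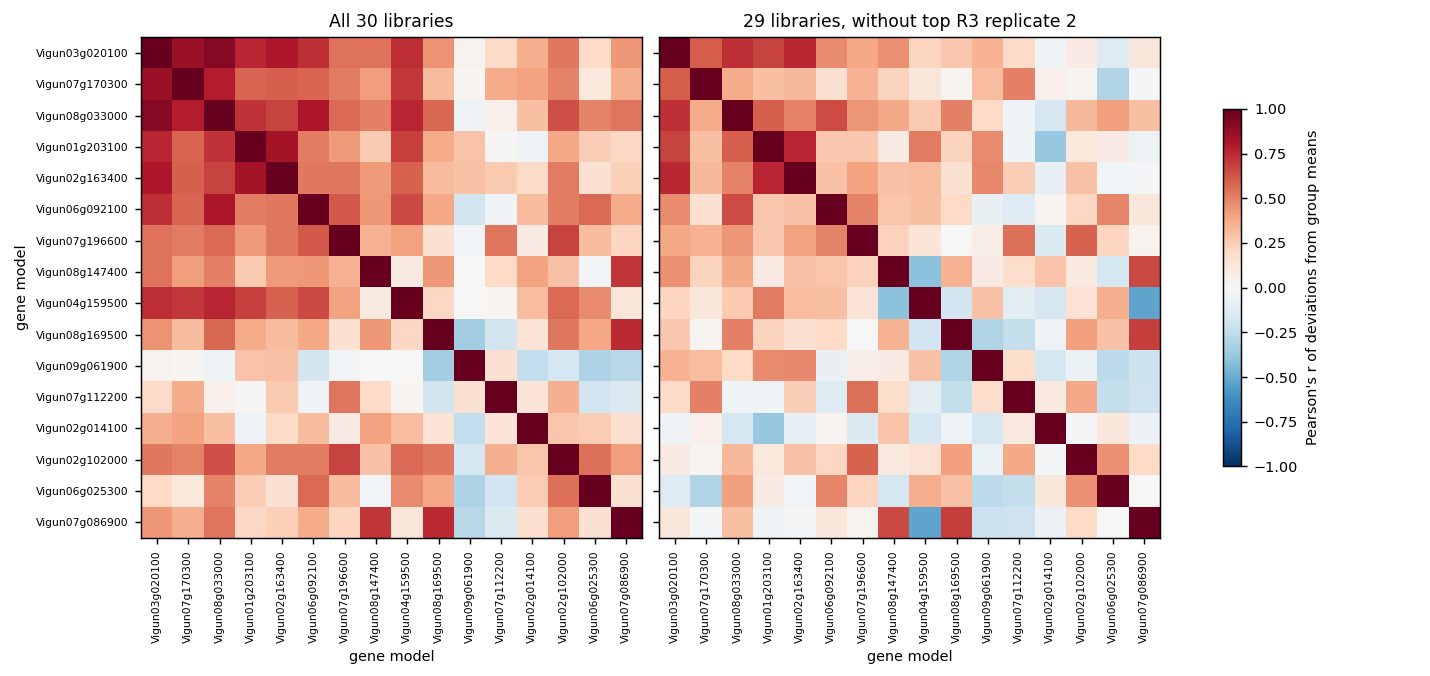
Pearson's r between gene models of their deviations from group means in log2 CPM, for all 30 libraries (left) and for 29 without top R3 replicate 2 (right), genes in the order of mean CPM. The median over 120 pairs falls from 0.37 to 0.20, and over all 30 libraries Vigun09g061900 has a median r of -0.03 to the others.

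The choice did not compare the stages directly, and R3 was compared with R1 at each position with the quasi-likelihood test of edgeR over all 20284 genes. The choice did bound the position ratios at both stages, so a gene that moved with stage at 1 position alone tended to be left out, and the calls per position are not independent of the choice. In bottom leaves 1 of the 16 genes was called lower at R3 (6.25%) and 0 higher (edgeR, adjusted p under 0.05), against 8.53% lower and 7.71% higher among all genes. In middle leaves 1 was called lower (6.25%) and 0 higher, against 1.42% and 1.06%. In top leaves 0 were called, against 1.56% in either direction, with 2 genes at an unadjusted edgeR p under 0.05. DESeq2 called 1 of the 16 there, where it called 858 of all genes. A single gene of the 16 is already 6.25%, so nothing is read from these shares. The gene called was the same in bottom and middle leaves, Vigun09g061900.

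Vigun09g061900 (chromosome 9, 6433278 to 6435621, plus strand, 4 exon blocks) was at 17.2, 21.2, 51.6, 30.9 and 46.0 CPM in bottom leaves at R1 and at 14.8, 16.6, 2.10, 1.07 and 1.41 CPM at R3. In middle leaves it was at 8.34, 27.97, 30.1, 36.3 and 50.6 CPM at R1 and at 13.4, 5.56, 2.57, 0.903 and 1.98 CPM at R3. In top leaves it was at 3.83, 5.65, 4.35, 11.8 and 7.79 CPM at R1 and at 0.639, 2.75, 0.869, 1.52 and 1.503 CPM at R3. The stages did not overlap in bottom or top leaves and overlapped in middle leaves, where replicate 1 was low at R1 and high at R3. The log2 fold change was -2.21 in bottom (SE 0.69, edgeR adjusted p = 0.031) and -2.65 in middle leaves (SE 0.71, adjusted p = 0.044). In top leaves it was -2.21 with an SE of 0.75 and an adjusted p of 0.13, which missed the threshold, although DESeq2 called it. The test of the difference in stage effect between top and bottom leaves gave an edgeR adjusted p of 0.999. A p that misses the threshold does not show that the effects were alike. The call in bottom leaves ended without bottom R1 or R3 replicates 3, 4 or 5, and that in middle leaves without middle R1 replicates 1 to 5, middle R3 replicates 2 to 5 or top R1 replicates 2, 3 or 5, with the largest edgeR adjusted p at 0.12. Both ended when only the 2 groups compared were fitted (edgeR adjusted p = 0.093 and 0.068), and the middle call ended without the filter (0.059).

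Averaged over the 3 positions, a contrast added after seeing the data, 5 of the 16 genes were called, 4 higher and 1 lower at R3 (25% and 6.25%), where 29.9% of all genes were called, 14.5% higher and 15.4% lower. This fit treats the 3 positions of a number as separate samples, although libraries of bottom and middle leaves with the same number deviated together at R1 (r of 0.19 to 0.52 over all genes). With 1 value per stage and number, 5 against 5, limma called 0 of the 16 higher (2 at an unadjusted p under 0.05) and 1 lower, so the 4 higher calls ended. The gene still called was Vigun09g061900, at -2.36 (log2, SE 0.41, edgeR adjusted p = 0.00019) and at -2.67 with an adjusted p of 0.011 by limma, the largest of its 36 alternatives. Vigun07g086900 (chromosome 7, 13328843 to 13331148, plus strand, 2 exon blocks) had an estimate of 1.52 (log2, SE 0.47, edgeR adjusted p = 0.017), with a limma adjusted p of 0.16. It was at 3.38 ± 2.15, 4.92 ± 5.47 and 0.816 ± 0.351 CPM from the bottom to the top layer at R1 and at 15.8 ± 10.8, 12.1 ± 8.51 and 1.67 ± 1.59 CPM at R3. Bottom R3 replicate 2 stayed at 1.45 CPM, inside the range of R1, while the other 4 stood at 13.3 to 31.6 CPM. In top R3 replicate 2 it had 0 counts, which allows up to 0.295 CPM.

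Vigun08g033000 had an average estimate of 0.95 (SE 0.32, edgeR adjusted p = 0.026, limma adjusted p = 0.14), with 133 ± 36.9 CPM at R1 and 244 ± 64.5 CPM at R3 in bottom leaves, 91.2 ± 23.0 and 175 ± 76.4 CPM in middle leaves and 33.4 ± 27.5 and 68.5 ± 45.2 CPM in top leaves. Vigun07g196600 had an estimate of 0.98 (SE 0.34, edgeR adjusted p = 0.030, limma adjusted p = 0.080), and the edgeR call also ended without bottom R3 replicate 3, top R1 replicate 3, or top R3 replicates 3 or 5 (adjusted p up to 0.070). Vigun08g169500 (chromosome 8, 34043572 to 34044412, plus strand, 3 exon blocks) had an estimate of 1.26 (SE 0.47, edgeR adjusted p = 0.043, limma adjusted p = 0.36). Its call ended in 20 of 36 alternatives, among them the fits without bottom R1 replicates 1, 3, 4 or 5, bottom R3 replicates 4 or 5, middle R1 replicates 1, 3 or 4, middle R3 replicates 4 or 5, top R1 replicates 1, 2 or 3 and top R3 replicates 1 or 4, with edgeR adjusted p up to 0.13.

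The R3 libraries of Vigun08g169500 differed by replicate number. It was at 12.7, 30.1, 13.4, 8.85 and 8.79 CPM in bottom leaves at R1 and at 32.0, 10.8, 21.1, 106.9 and 77.3 CPM at R3. In middle leaves it was at 1.65, 18.1, 9.10, 12.1 and 26.8 CPM at R1 and at 4.95, 7.78, 21.9, 132 and 44.2 CPM at R3. In top leaves it was at 0.958, 4.23, 3.22, 8.70 and 6.18 CPM at R1 and at 6.39, 0.687, 4.92, 15.6 and 2.74 CPM at R3. Replicate 4 was the highest library at all 3 positions at R3, and replicates 1 to 3 at R3 were within or near the R1 range. Its estimated log2 change stood at 1.75 for bottom leaves, 1.64 for middle leaves and 0.38 for top leaves (SE 0.80, 0.80 and 0.82), and the difference between top and bottom leaves was not called (-1.36, SE 1.14, edgeR adjusted p = 0.61).

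**Figure D5:**
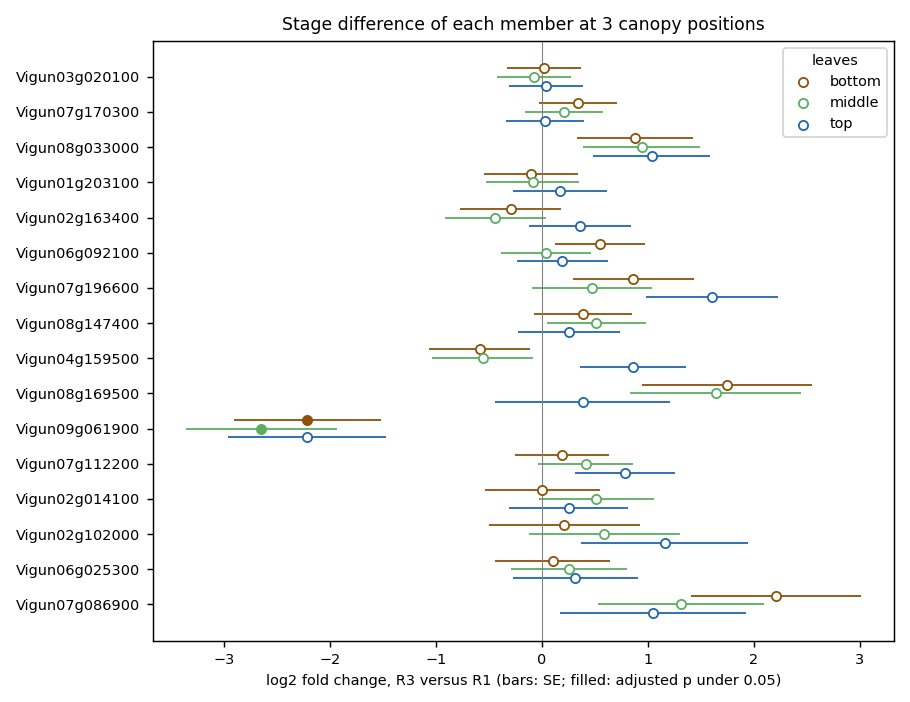
Log2 fold change of R3 versus R1 (horizontal axis; bars are the SE from edgeR) of each gene in bottom, middle and top leaves, with filled points where the adjusted p was under 0.05. The filled points are those of Vigun09g061900 in bottom and middle leaves, at -2.21 and -2.65.

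The other 11 genes were not called by edgeR in any of the stage contrasts. Averaged over positions their log2 changes ran from -0.13 for Vigun02g163400 to 0.65 for Vigun02g102000, and that of the most abundant, Vigun03g020100, was -0.01 with the smallest SE, 0.20. No stage effect of the 16 genes was called different between positions. For top versus bottom, top versus middle and middle versus bottom, edgeR called 0 of them (0% of all genes in each). The unadjusted edgeR p was under 0.05 in 1, 0 and 0 of the 16. DESeq2 also called 0 of the 16, where it called 464, 4 and 4 of all genes. The choice bounds the position ratios at both stages and so limits these differences among its members. Of the 88 genes low at the top with bottom well above middle, 7 were called higher and 0 lower at R3 in bottom leaves. In middle leaves 0 of the 88 were called, and in top leaves 1 was called higher. Among all genes 7.71% were called higher and 8.53% lower in bottom leaves. The shares of all genes were 2.48% in either direction in middle leaves and 0.799% higher in top leaves. The median log2 change was 0.20, 0.33 and 0.34 for the 16 genes in bottom, middle and top leaves, and 0.60, -0.05 and 0.75 for the 88, where the medians of all genes were -0.002, -0.01 and -0.001. These counts and medians describe lists chosen on the same libraries, the 88 on their ratio of bottom to middle at R1 or R3. They were not tested against each other.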

How the data were processed

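Per the labels' protocols, a MagMAX kit gave the RNA and a Kapa HyperPrep mRNA kit the libraries. The authors deposited raw read counts for each gene model, with a second deposited table of normalized values, treated as a signal. The submitters' processing notes list HISAT2, featureCounts and DESeq2 with neither version nor role. No source used here gives the genome build or whether counting used strand. The normalized table returned the raw counts in 100% of its values with 1 factor per library (tolerance 0.001), so the deposited raw counts were used. Every column matched 1 sample, and 0 were left over. Within groups, the chi-square per degree of freedom of 60 library pairs was 16.6 to 189, so none was counted as a copy. Exons listed for several transcripts were merged into exon blocks.

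Genes were kept by filterByExpr, scaled by TMM and fitted with edgeR 4.0.16 in R 4.3.3 by quasi-likelihood over all 6 groups together (residual degrees of freedom, 24), with Benjamini-Hochberg adjustment over 20284 genes. SE is the absolute log2 fold change over the square root of F. The scripts were tested on simulated counts. Replicate numbers were checked by correlating the deviations of same-numbered libraries over all genes: no R1 and R3 groups of a position had every r over 0.1, so the numbers were not taken to pair the stages. Within R1, bottom and middle leaves had every r over 0.1, so the stage average was also tested in limma 3.58.1 with 1 value (mean log2 CPM of 3 positions) per stage and number. All members are named, since they are few; the fuller values go to the most abundant, the most depleted, those changed with stage and those at the 2.5-fold limit. The members, lists and tests were chosen with earlier results of these data known. Alternatives were other scalings, no filter, DESeq2 1.42.0, replicate blocks, fits of 2 groups and leaving out each library.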

Additional observations from a re-analysis of the deposited data

Results flagged for a closer look

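Groups of 5 libraries were examined on the log2 scale, 102 in all (16 genes and their mean level in 6 groups each). In 5 of these, 1 library lay far from the other 4 by Dixon's criterion. Its nominal rate of 1 in 20 is for independent groups. These share libraries, and the mean level is built from the genes, so the number flagged is not compared with that rate. Top R3 replicate 2 was the library in 3 of them, at 26.4 CPM for Vigun03g020100 (the others 151 to 243), 7.27 CPM for Vigun07g170300 (42.6 to 80.2) and 2.36 CPM for Vigun08g033000 (45.2 to 118). Bottom R3 replicate 1 was at 1.15 CPM for Vigun02g014100, where the others were at 13.8 to 21.1 CPM. Top R1 replicate 3 was at 1.35 CPM for Vigun06g025300, where the others were at 2.18 to 2.35 CPM, a small gap in a tight group. The part of any cause in these values was not tested.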

How the results depend on the processing

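The list of genes held 20 genes with TMM-scaled CPM (11 of the 16 among them), 20 with group medians (7 of the 16), 15 without the 0.5 added, 42 at a 2-fold and 7 at a 3-fold limit, and 10 to 24 with 1 library or 1 replicate number left out (10 without top R3 replicate 2 and 10 without middle R1 replicate 5, 24 without replicate 1). Top lay below all other libraries in 8 genes at R1 and 7 at R3 on library totals, and in 7 to 12 (12 without middle R1 replicate 1) and 5 to 9 (9 without top R3 replicate 5, 8 without middle R3 replicate 1) with 1 library left out. With the replicate number as a block within each stage (1 unit per stage and number, limma), chosen after seeing the data, the averaged contrast called 0 members higher, 1 lower and 3052 of all genes. Its 5 genes kept their sign in the alternatives tried; members called in edgeR ran from 2 (without top R1 replicate 3) to 4 higher and stayed at 1 lower with 1 library left out. In bottom leaves members called ran from 0 to 1 higher and 0 to 1 lower with 1 library left out, in middle leaves from 0 to 1 lower, and in top leaves from 0 to 1 higher. DESeq2 called 1 higher in bottom leaves (Vigun07g086900) and 1 lower in top leaves, the fits of 2 groups called 0 lower in bottom and middle leaves, and the fit without the filter 0 lower in middle leaves. All genes called numbered 1801 to 4002 in bottom, 67 to 1402 in middle, 86 to 1523 in top leaves and 5400 to 7291 for the average with 1 library left out. They were 1189, 234 and 45 in fits of 2 groups, 290 in middle and 859 in top leaves without TMM, 259 in middle leaves without the filter, and 1433 and 858 with DESeq2. Without TMM the median of all genes moved to -0.18 (log2) in top leaves. With the replicate number as a block, 1 member was called higher in bottom leaves (Vigun07g086900) and the averaged call of Vigun08g169500 ended. The numbers are not shown to pair the stages. The share of all genes called in that fit is not given here, so nothing is read from its calls. Interactions stayed at 0 members under every alternative, the block within stage included.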
